A study of Mus musculus with 6 samples.

Results

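A set of 10 genes of lipofibroblasts and of triglyceride storage were followed in cultured lung fibroblasts of wt and ki mice: Pparg, Cebpb, Dgat1, Dgat2, Plin2, Pnpla2, Lipe, Lpl, Fabp4 and Fabp5. They were chosen by name, with earlier results of these data known. Every array probe annotated to one of these symbols was taken, which gave 16 of the 45281 probes. Each genotype was represented by 3 mice with 1 Illumina bead array per mouse. The wt mice were p38+/+ and the ki mice p38ki/ki. All mice were 10 weeks old, and all cells were taken at passage 1 from DMEM/F12 medium with 15% foetal calf serum. The labels do not state which p38 gene carries the knock-in, the change it makes, the sex of the mice, or how the fibroblasts were isolated. The labels name no treatment. The comparison throughout is ki minus wt, on the log2 scale of normalised intensity unless a fold is given.

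Lipofibroblasts are lung fibroblasts that hold neutral lipid in droplets, lie next to alveolar type 2 cells, and supply them with lipid for surfactant. Triglyceride is made by a chain of acyltransferases in the endoplasmic reticulum, of which DGAT1 and DGAT2 carry out the last step, and it is stored in droplets coated by perilipins. Lipases release the fatty acids again, fatty acid binding proteins carry them through the cell, and the transcription factors C/EBP beta and PPAR gamma switch on this set of genes when a fibroblast becomes a fat-storing cell.

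A promoter window, from 250 bases before to 50 bases after the gene start, was at hand in RefSeq (build GRCm38.p6) for 5 of the 10 genes, in 8 windows of 300 bases. The windows of Cebpb and of 2 of the 3 Pparg starts are shown because these 2 genes encode the regulators of the others, and because a C/EBP factor acting on Pparg is part of the textbook order of fat cell formation. Each is written 5′ to 3′ on the plus strand, which is the strand of both genes. Capitals mark matches on either strand to the C/EBP motif TTGCNNAA or to TGACG, the core of the cyclic AMP response element. The motifs do not overlap in these windows.
Cebpb, chr2:167688665-167688964: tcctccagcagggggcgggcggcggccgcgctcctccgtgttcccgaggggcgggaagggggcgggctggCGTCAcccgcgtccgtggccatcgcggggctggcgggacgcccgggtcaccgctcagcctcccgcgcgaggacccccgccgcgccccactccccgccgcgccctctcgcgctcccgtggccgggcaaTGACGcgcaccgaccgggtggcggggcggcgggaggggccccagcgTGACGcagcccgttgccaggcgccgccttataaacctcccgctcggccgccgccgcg
Pparg, start 1, chr6:115360894-115361193: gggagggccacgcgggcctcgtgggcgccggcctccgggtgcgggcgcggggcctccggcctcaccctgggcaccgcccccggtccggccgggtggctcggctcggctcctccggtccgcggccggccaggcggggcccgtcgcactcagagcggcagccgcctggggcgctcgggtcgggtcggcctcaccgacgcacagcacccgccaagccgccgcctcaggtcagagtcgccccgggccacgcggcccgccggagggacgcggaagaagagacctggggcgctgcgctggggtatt
Pparg, start 3, chr6:115421816-115422115: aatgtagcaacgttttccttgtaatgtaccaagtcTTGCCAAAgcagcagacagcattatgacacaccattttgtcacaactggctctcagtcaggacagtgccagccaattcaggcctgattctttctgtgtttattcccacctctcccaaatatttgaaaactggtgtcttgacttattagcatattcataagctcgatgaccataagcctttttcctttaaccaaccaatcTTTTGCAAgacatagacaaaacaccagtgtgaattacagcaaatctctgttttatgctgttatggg

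The Cebpb window was 80.7% G and C and held 3 matches to TGACG, at 180 to 176, 53 to 49 and 7 to 3 bases before the start, the first of them on the minus strand. The window of Pparg start 1 was 80.3% G and C and held neither motif. The window of Pparg start 3 was 40.3% G and C and held 2 matches to TTGCNNAA, at 215 to 208 bases before the start on the plus strand and at 16 to 9 bases on the minus strand. Neither motif was in the windows not shown, those of Pparg start 2, Plin2, Pnpla2 and Lipe. Of the 32851 RefSeq mouse promoter windows, 10.8% held TTGCNNAA and 20.8% held TGACG. The PPAR element, searched as 2 copies of AGGTCA with 1 base between them, was in none of the 8 windows and in 0.0396% of all windows. These matches describe letters only, and the arrays measured no binding.

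Of the 10 genes, 8 were detected well enough to be tested, that is with a detection p-value under 0.05 on at least 3 of the 6 arrays. Of these, 5 genes, Dgat2, Fabp5, Pparg, Cebpb and Dgat1, fell in ki, by 1.32-fold to 2.58-fold, and 0 rose. Plin2, Pnpla2 and Lpl did not pass the test, which was limma's moderated test with Benjamini-Hochberg adjustment over the 10412 genes tested and a threshold of 0.05. Among all tested genes 8.31% were called lower, 9.74% higher and 18.0% in either direction. The median difference of the 8 genes was -0.44, beside 0.01 for all tested genes. On 6 of the 8 genes every ki array lay below every wt array, which was so for 18.1% of all tested genes. The genes were chosen with earlier results of these data known, so these counts and medians are a description and not a test of the set.

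The plot of normalised intensity by array shows each gene's brightest probe, the one that was tested.

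**Figure D1:**
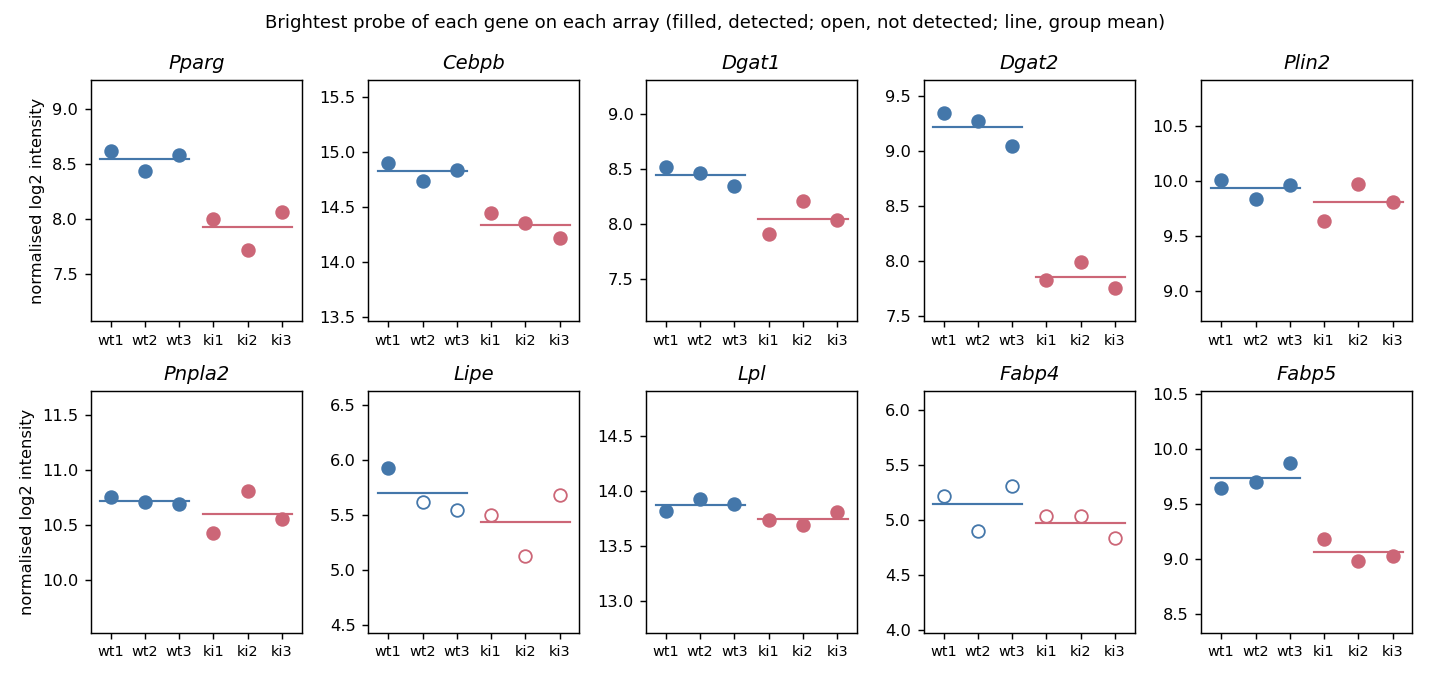
Normalised log2 intensity of the brightest probe of each of the 10 genes (vertical axes, a different range in each panel) on the 3 wt and the 3 ki arrays. Filled points were detected and open points were not, and lines are group means. Dgat2 shows the widest gap, 9.22 in wt and 7.86 in ki, while the Plin2 and Pnpla2 arrays overlap between genotypes and Fabp4 was detected on no array.

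Of the regulators, Pparg encodes the nuclear receptor PPAR gamma, which is switched on by fatty acids and their derivatives. Its probe read 8.62, 8.43 and 8.58 in wt and 8.0, 7.71 and 8.06 in ki. All ki arrays lay below all wt arrays, with ki mouse 2 the lowest. The means were 8.54 ± 0.10 (SD, n = 3) in wt and 7.92 ± 0.18 (SD, n = 3) in ki, and Pparg fell by 0.62 (SE 0.11, 95% interval -0.88 to -0.36, adjusted p = 0.0104 by limma), or 1.54-fold. Of all tested genes, 3.29% had a lower difference.

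Cebpb encodes C/EBP beta, a leucine zipper factor that acts early in fat cell formation and also in inflammation. Its probe read 14.90, 14.73 and 14.83 in wt and 14.44, 14.35 and 14.21 in ki. The groups were separate and the spread within each was small, with SDs of 0.083 and 0.11. Cebpb fell by 0.49 (SE 0.087, 95% interval -0.69 to -0.28, adjusted p = 0.0107 by limma), or 1.40-fold.

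The acyltransferases both fell, Dgat2 by 2.58-fold and Dgat1 by 1.32-fold, each read by 1 probe. Dgat2 encodes the enzyme tied to droplets and to newly made fatty acids. It read 9.35, 9.27 and 9.04 in wt and 7.83, 7.99 and 7.75 in ki. Every ki array was over 1 log2 unit below every wt array. The means were 9.22 ± 0.16 and 7.86 ± 0.12 (SD, n = 3 each). Dgat2 fell by 1.37 (SE 0.11, 95% interval -1.62 to -1.11, adjusted p = 4.49e-04 by limma), or 2.58-fold, and 0.442% of all tested genes had a lower difference.

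Dgat1 encodes the unrelated enzyme that carries out the same reaction and re-esterifies fatty acids taken up or released. It read 8.52, 8.47 and 8.35 in wt and 7.91, 8.21 and 8.04 in ki. The groups did not overlap, with ki mouse 2 and wt mouse 3 nearest to each other. Dgat1 fell by 0.40 (SE 0.098, 95% interval -0.63 to -0.16, adjusted p = 0.0343 by limma), or 1.32-fold. This call was near the threshold. The adjusted p was 0.0553 to 0.103 when wt mouse 1, 2 or 3 or ki mouse 1 or 3 was left out. Without ki mouse 2 it was 0.025. The difference of Dgat1 was -0.48 to -0.32 over these fits. The difference of Dgat2 was 0.97 below that of Dgat1 (ki minus wt of Dgat2 minus Dgat1, -0.97), with no overlap between genotypes. An exact two-sided permutation test gave p = 0.1, the smallest that 3 against 3 arrays allow.

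Plin2, the perilipin found on droplets of most cell types and a usual marker of lipofibroblasts, did not pass. It read 10.01, 9.83 and 9.96 in wt and 9.64, 9.97 and 9.81 in ki. The arrays overlapped, since ki mouse 2 lay above wt mice 2 and 3. The difference was -0.13 (SE 0.10, 95% interval -0.37 to 0.12, adjusted p = 0.443 by limma).

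Of the lipases, Pnpla2 encodes adipose triglyceride lipase, which removes the first fatty acid. It read 10.76, 10.71 and 10.69 in wt and 10.43, 10.81 and 10.56 in ki. Ki mouse 2 was the highest of all arrays and ki mouse 1 the lowest, so the groups overlapped. The difference was -0.12 (SE 0.11, 95% interval -0.37 to 0.13, adjusted p = 0.476 by limma).

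Lipe encodes hormone-sensitive lipase, which acts on the diglyceride that Pnpla2's product leaves. The brightest of its 3 probes had deposited signals of 50.7, 28.9 and 25.3 in wt and 23.3, 3.87 and 38.3 in ki. It was detected only on wt mouse 1, with a detection p-value of 0.0267, and the other probes on no array, so Lipe was not tested and no fold is given.

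Lpl encodes lipoprotein lipase, a secreted enzyme that frees fatty acids from circulating lipoproteins for uptake. It read 13.82, 13.92 and 13.88 in wt and 13.73, 13.69 and 13.81 in ki. The ki arrays all lay below the wt arrays, but ki mouse 3 and wt mouse 1 were nearly level. The difference was -0.13 (SE 0.070, 95% interval -0.29 to 0.04, adjusted p = 0.253 by limma), which did not pass.

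The fatty acid carriers differed in whether they could be measured. Fabp5, the carrier of skin and macrophages that is also made in many other cells, read 9.64, 9.70 and 9.88 in wt and 9.18, 8.98 and 9.03 in ki. The lowest wt array lay well above the highest ki array. Fabp5 fell by 0.68 (SE 0.093, 95% interval -0.90 to -0.45, adjusted p = 0.00375 by limma), or 1.60-fold. The means were 9.74 ± 0.12 and 9.06 ± 0.11 (SD, n = 3 each).

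Fabp4, the carrier of fat cells, macrophages and small-vessel endothelium, had 1 probe, with deposited signals of 10.2, -11.2 and 13.4 in wt and -1.97, -1.08 and -18.7 in ki. It was detected on none of the 6 arrays, with 0.239 as its lowest detection p-value. A probe below detection has only an upper bound, so this says nothing of a difference in Fabp4 between the genotypes.

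The plot of differences sets the 8 tested genes side by side with the values that other processing choices gave.

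**Figure D2:**
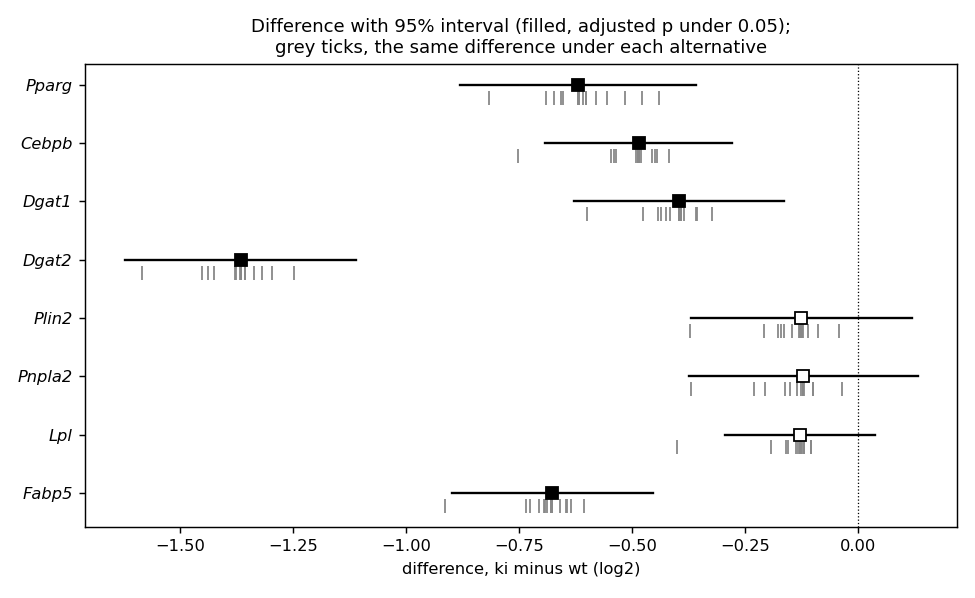
Difference ki minus wt on the log2 scale (horizontal axis) for the 8 tested genes, with the 95% interval of limma's fit. Filled squares passed at an adjusted p under 0.05, and grey ticks are the differences under the other processing choices and with single arrays left out. Dgat2 stands at -1.37, apart from the other 7 genes, which lie between -0.68 and -0.12.

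The deposited signals before scaling between arrays gave the same order of genotypes for the 5 genes that fell. The Dgat2 signal was 776, 621 and 516 in wt and 214, 177 and 205 in ki. The Fabp5 signal was 945, 842 and 942 in wt and 564, 362 and 511 in ki. The Pparg signal was 456, 337 and 366 in wt and 244, 144 and 258 in ki. The genotypes were separate for these 3 genes, as they were for Dgat1 (312.9 to 424 in wt, 207 to 253 in ki) and Cebpb (28264 to 37098 in wt, 15316 to 21643 in ki). The arrays also differed in brightness as a whole: the mean signal over all probes was 712 to 847 in wt and 519 to 695 in ki. Separation before scaling therefore adds no support to the calls. The share of all genes separate on these signals was not counted. The signals of Plin2, Pnpla2 and Lpl were likewise lower on every ki array before scaling. For Plin2 they were 1228, 925 and 1000 in wt and 788, 720 and 888 in ki. Scaling of the arrays thus moved these 3 genes to within or near the wt range.

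Of the 16 probes, 9 passed the detection rule and 5 were detected on no array. Pparg had 3 probes, all annotated to the same transcript. Its second probe had signals of 33.5, 38.3 and 53.8 in wt and 38.5, 21.1 and 25.9 in ki, was detected on wt mice 2 and 3 and ki mouse 1, and had a difference of -0.26 (adjusted p = 0.322 by limma over 18249 probes). Its dimmest probe was detected on wt mouse 2 alone. The call for Pparg therefore came from 1 probe. The second probes of Lpl and Fabp5 were detected on no array, and Dgat1, Dgat2, Plin2, Pnpla2, Fabp4 and Cebpb had 1 probe each.

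**Figure D3:**
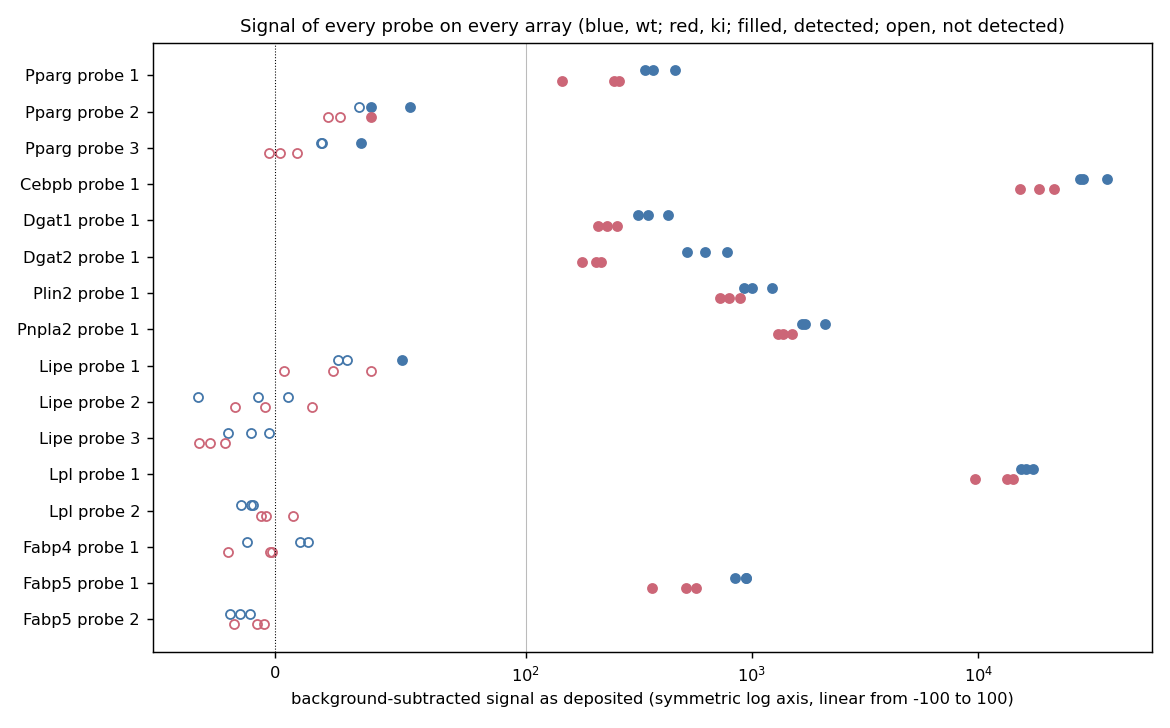
Deposited background-subtracted signal (horizontal axis, arbitrary units, symmetric log scale that is linear near 0) of all 16 probes, with wt arrays in blue and ki arrays in red. Filled points were detected at p under 0.05. On the brightest probe of the 8 tested genes the wt arrays lie to the right of the ki arrays, and all signals of the other 8 probes lie below 100. The signals are not scaled between arrays, and the wt arrays were brighter as a whole.

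The other genes of the pathway were taken from 7 lists that together held 150 genes, of which 138 were on the array and 107 were tested. Of the 107, 18 fell and 7 rose, so 16.8% were lower and 6.54% higher beside 8.31% and 9.74% of all tested genes, and 82 did not pass. Some genes are on more than 1 list. The lists were drawn up with earlier results of these data known, so these counts are a description.

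Of 14 tested genes of triglyceride synthesis, 2 fell and 0 rose, with a median difference of -0.06. Gpat3, an enzyme of the first acylation of glycerol-3-phosphate, fell 1.69-fold (adjusted p = 0.0144 by limma), and its other detected probe fell by 0.82. Without wt mouse 2 the adjusted p of Gpat3 was 0.0509. Lpin3, a phosphatidate phosphatase, fell 1.64-fold (adjusted p = 0.0476), was detected on only 2 of 3 ki arrays, and had an adjusted p of up to 0.13 when any wt mouse or ki mouse 1 was left out. Gpd1 and Mogat1 were detected on no array.

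Of 12 tested genes of droplet coat and assembly, 2 fell and 1 rose, with a median of -0.06. Hilpda, a droplet protein that inhibits the lipase made from Pnpla2, read 12.64, 12.74 and 12.70 in wt and 11.74, 11.69 and 11.75 in ki. These were tight and separate groups, and Hilpda fell 1.95-fold (adjusted p = 2.25e-04 by limma). Fitm2, an endoplasmic reticulum protein needed for droplets to bud, fell 1.28-fold (adjusted p = 0.0142, and 0.051 without wt mouse 3). Of its other detected probes 1 fell (-0.54, adjusted p = 0.0126 over all probes) and 1 did not pass (-0.33, adjusted p = 0.176). Cav1, the coat protein of caveolae, rose 1.27-fold (adjusted p = 0.0183). Its adjusted p reached 0.0584 when wt mouse 2 or 3 or ki mouse 1 or 3 was left out. It was 0.855 when all probes were scaled to a common median. That scaling put the median of all tested genes at -0.22, which works against a call of a rise. Scaling over the probes detected on all arrays put that median at -0.01, and Cav1 then passed (adjusted p = 0.0452). The fat cell coat genes Plin1, Plin5, Cidea and Cidec were detected on no array.

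Of 8 tested genes of lipolysis, 2 fell and 1 rose, with a median of 0.03. G0s2, another inhibitor of the Pnpla2 lipase, fell 1.35-fold (adjusted p = 0.0114 by limma). Prkar2b, a regulatory subunit of protein kinase A, fell 1.22-fold (adjusted p = 0.034), and its adjusted p reached 0.102 when any wt mouse or ki mouse 1 or 2 was left out. Pnpla6, a lysophospholipase, rose 1.31-fold (adjusted p = 0.0314), while its other detected probe did not pass (0.18, adjusted p = 0.436 over all probes). Its adjusted p reached 0.0935 when wt mouse 2 or 3 or ki mouse 1 or 2 was left out. It was 0.513 under scaling to a common median and 0.033 under scaling over the probes detected on all arrays. Abhd6, Aqp7 and Pde3b were detected on no array.

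Of 17 tested genes of fatty acid uptake and activation, 3 fell and 1 rose, with a median of -0.16. Gpihbp1, the protein that carries and anchors lipoprotein lipase on capillary endothelium, read 8.59, 8.52 and 8.58 in wt and 7.05, 7.31 and 6.96 in ki. It fell 2.75-fold (adjusted p = 2.59e-04 by limma), and its other detected probe fell by 1.31. Slc27a6, a fatty acid transport protein, fell 1.89-fold (adjusted p = 0.00183). Lmf2, of the lipase maturation factor family, fell 1.85-fold (adjusted p = 0.0195), was detected on 2 of 3 ki arrays and had an adjusted p of up to 0.0659 when any wt mouse or ki mouse 3 was left out. Acsl5, an acyl-CoA synthetase, rose 1.41-fold (adjusted p = 0.00414). Its other detected probes had differences of 0.38 and -0.08. The adjusted p of Acsl5 was 0.521 under scaling to a common median and 0.0143 under scaling over the probes detected on all arrays. Cd36, a fatty acid receptor, was detected on no array, nor were the carriers Fabp1 and Fabp7.

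Of 21 tested regulators of fat cell formation, 3 fell and 0 rose, with a median of -0.05. Rxra, the nuclear receptor that pairs with PPAR gamma on DNA, read 7.85, 7.79 and 7.71 in wt and 7.01, 7.03 and 6.81 in ki and fell 1.78-fold (adjusted p = 0.00117 by limma). Dlk1, a surface protein that holds precursor cells back from becoming fat cells, fell 1.37-fold (adjusted p = 0.00701), while its other detected probe did not pass (-0.32, adjusted p = 0.131 over all probes). Pth1r, the receptor through which parathyroid hormone-related protein acts on lipofibroblasts, fell 1.56-fold (adjusted p = 0.00717). Gata3, Klf15, Ppara, Ppargc1a, Stat5b and Zfp423 were detected on no array.

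Of 18 tested lipofibroblast markers, 7 fell and 3 rose, with a median of -0.25. Fgf10, a growth factor for the epithelium and a marker of the lineage, read 10.89, 10.87 and 10.88 in wt and 8.93, 9.0 and 9.0 in ki and fell 3.74-fold (adjusted p = 1.53e-05 by limma). Bmp3, a secreted protein of the bone morphogenetic protein family, fell 4.07-fold (adjusted p = 1.95e-04). Apoe, the lipid-carrying apolipoprotein E, which macrophages also make, fell 2.73-fold (adjusted p = 1.35e-04). Gucy1a1, a subunit of the nitric oxide receptor, rose 2.36-fold (adjusted p = 3.84e-04). Of its 3 other detected probes 1 rose (1.03, adjusted p = 0.0228 over all probes), and 2 did not pass (0.69, adjusted p = 0.0979, and 0.85, adjusted p = 0.147). Wnt2, a secreted Wnt ligand, rose 1.93-fold (adjusted p = 0.00319). Inmt, a methyltransferase named here after its value was seen because it completes the 3 that rose, rose 1.35-fold (adjusted p = 0.0132). Its adjusted p was 0.469 under scaling to a common median and 0.0163 under scaling over the probes detected on all arrays. Its other detected probe did not pass (0.73, adjusted p = 0.0699 over all probes). The others of the 7 that fell were Pth1r, given above, and Limch1, Pdgfra and Itga8, also named after their values were seen. Limch1 fell 1.76-fold (adjusted p = 0.00497 by limma) and Pdgfra 1.33-fold (adjusted p = 0.0189). With any wt mouse left out, Pdgfra had an adjusted p of up to 0.0638. Itga8 fell 1.83-fold (adjusted p = 0.0453) and was detected on 2 of 3 ki arrays. Its adjusted p reached 0.131 when any wt mouse or ki mouse 1 was left out. Markers of the list thus changed in both directions, and Col13a1, Enpep, Fgfr4, Lrat and Npnt were detected on no array.

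Of 19 tested genes of fatty acid oxidation, 1 rose and 0 fell, with a median of -0.02. The 1 gene was Acaa1a, a peroxisomal thiolase, which rose 1.22-fold (adjusted p = 0.0282 by limma). With each of the 6 arrays left out in turn it no longer passed, with adjusted p up to 0.0909. Under scaling to a common median its difference was -0.05. Scaling over the probes detected on all arrays gave it an adjusted p of 0.166. Cpt1a and Hadh were detected on no array.

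**Figure D4:**
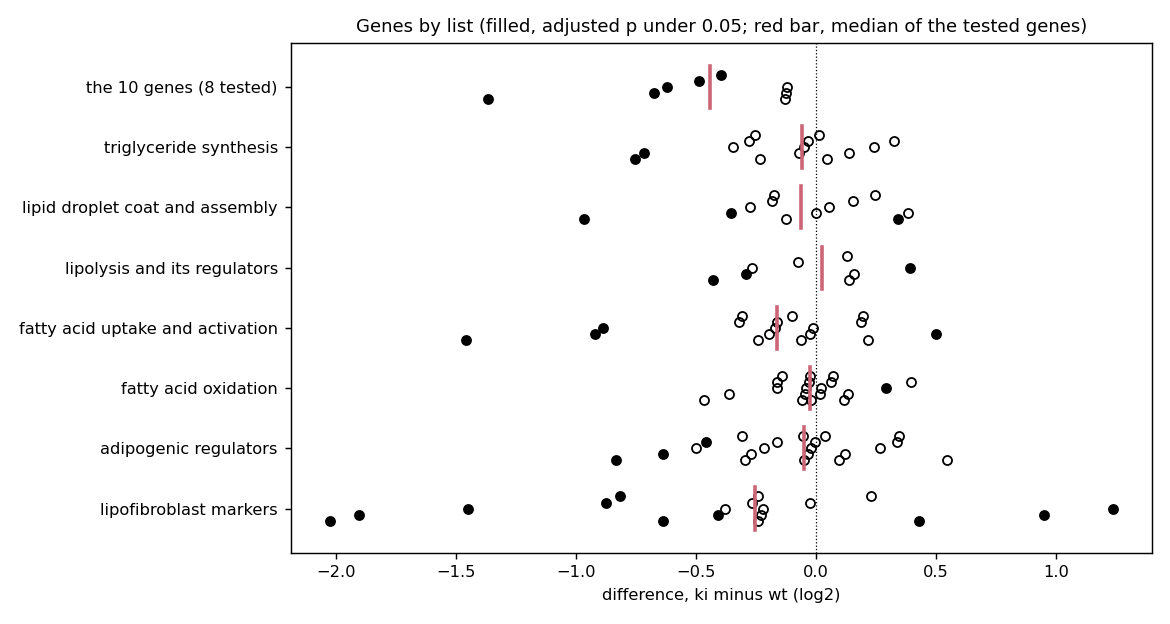
Difference ki minus wt on the log2 scale (horizontal axis) of each tested gene, in a row for the 10 named genes (8 tested) and for each of the 7 pathway lists. Filled points passed at an adjusted p under 0.05 and red bars are medians. The row of the named genes has its median at -0.44, the lipofibroblast markers at -0.25 with called genes on both sides of 0, and fatty acid oxidation at -0.02.

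The labelled cell type was checked with marker genes, and markers of other cells moved with genotype. All 14 fibroblast markers were detected well enough to test, and 5 of them fell and 0 rose. Postn, which did not pass, was detected on 3 wt arrays and 0 ki arrays. The summed intensity of the 14 markers was 171575 to 183078 in wt and 153960 to 162965 in ki. Here and below, sums of intensity follow mainly the brightest genes of a list. The 3 with the smallest p were the collagen genes Col1a2 (2.33-fold lower, adjusted p = 6.90e-04 by limma) and Col3a1 (1.31-fold lower, adjusted p = 0.00966) and the surface marker Thy1 (1.51-fold lower, adjusted p = 0.00405). Of 10 fat cell markers on the array only 2 were detected well enough to test, with sums of 132 to 141 in wt and 112 to 137 in ki, and Plin1, Cidec, Cidea, Retn, Aqp7 and Ucp1 were detected on no array.

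Macrophages also express Fabp5, Fabp4, Lpl, Plin2 and Pparg, and PPAR gamma is a regulator of alveolar macrophages. Of 9 tested alveolar macrophage markers 3 fell and 0 rose, with a median difference of -0.23. Their summed intensities were 35467 to 37693 in wt and 25404 to 27203 in ki. Car4, a carbonic anhydrase, fell 3.83-fold (adjusted p = 5.12e-05 by limma), Chil3, a chitinase-like protein, fell 2.18-fold (adjusted p = 2.14e-04), and the surface protein gene Plet1 also passed. Plet1 was detected on all 3 wt arrays but on 1 ki array, so no fold is given, and without wt mouse 2 it did not pass (adjusted p = 0.0548). The defining marker Siglecf was detected on no array, nor were Krt79 and Olr1. Of 14 tested markers shared by macrophages and other leukocytes 3 fell and 2 rose, with sums of 193367 to 196434 in wt and 186733 to 189910 in ki. These had C1qc 1.34-fold lower (adjusted p = 0.00462) beside Aif1 1.35-fold higher (adjusted p = 0.0107) and Adgre1 1.32-fold higher (adjusted p = 0.0206), and Itgax was detected on no array. Without wt mouse 2 or 3 or ki mouse 2 or 3, Adgre1 no longer passed (adjusted p up to 0.0661). The part of macrophages in the differences of Fabp5, Pparg and Apoe was not tested. In RNA from a whole culture, fewer cells of a type and less RNA per cell cannot be told apart.

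Larger shifts were seen for other cell types. All 12 tested mesothelial markers rose (11 under scaling to a common median), with summed intensities of 13204 to 13367 in wt and 26788 to 29639 in ki, and 2 of them, Gpm6a and Krt19, entered the test through the ki arrays alone. The 3 genes with the smallest p were Upk3b (7.48-fold, adjusted p = 1.53e-05 by limma), Upk1b (7.38-fold, adjusted p = 1.53e-05) and Krt8 (6.75-fold, adjusted p = 1.83e-05). Of 11 tested neutrophil markers 9 fell and 0 rose, with sums of 17993 to 19399 in wt and 5488 to 6523 in ki. S100a9 fell 15.2-fold (adjusted p = 4.19e-06). Mpo and Ctsg were not well above background on any ki array and were at least 10.4-fold and 3.89-fold lower there, the bound being taken against the lowest detected signal of each ki array. They are among 4 of the 9 genes that entered the test through the wt arrays alone, so that their calls carry no weight of their own, and they were not tested when a wt array was left out. Cxcr2 was detected on no array.

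Of 4 tested alveolar type 2 cell markers 2 rose and 0 fell, Sftpd 2.22-fold (adjusted p = 9.48e-04 by limma) and Napsa 1.77-fold (adjusted p = 0.0229, and up to 0.0704 without ki mouse 1 or 2). The sums were 4737 to 5336 in wt and 6168 to 6719 in ki. They came mainly from the brightest marker, Abca3 (means of 12.06 in wt and 12.35 in ki), which did not pass (adjusted p = 0.0558 by limma). The defining surfactant genes Sftpc, Sftpb and Sftpa1, and Lamp3 and Slc34a2, were detected on no array. Of 11 tested endothelial markers 1 rose, Esam at 1.24-fold (adjusted p = 0.0432), and 0 fell, with sums of 7032 to 7507 in wt and 6773 to 7052 in ki; Erg was detected on no array. Without any 1 of the 3 wt mice or ki mouse 2 or 3, Esam no longer passed (adjusted p up to 0.123). The mean log2 intensity of the 11 endothelial markers was 8.74 to 8.79 in wt and 8.55 to 8.66 in ki, so it was lower on every ki array, as Gpihbp1 was. Under scaling to a common median, which put the median of all tested genes at -0.22, 4 endothelial markers were called lower and 0 higher. Under scaling over the probes detected on all arrays, 1 was called lower and 0 higher. The part of these cell types in the differences of the 10 genes was not tested.

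The Y-linked gene Eif2s3y and the X-linked gene Xist were both detected on every array. Why both were detected on arrays of 1 mouse each was not tested. The Y-linked genes Kdm5d and Uty were detected on fewer arrays, Kdm5d on 1 wt and 3 ki arrays and Uty on 1 wt array. The brighter Eif2s3y probe read 8.08 to 8.31 in wt and 9.77 to 9.82 in ki, and the brightest Xist probe 9.73 to 10.20 in wt and 9.08 to 9.59 in ki. These levels moved with genotype beside every difference given here, and their part in it was not tested.

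**Figure D5:**
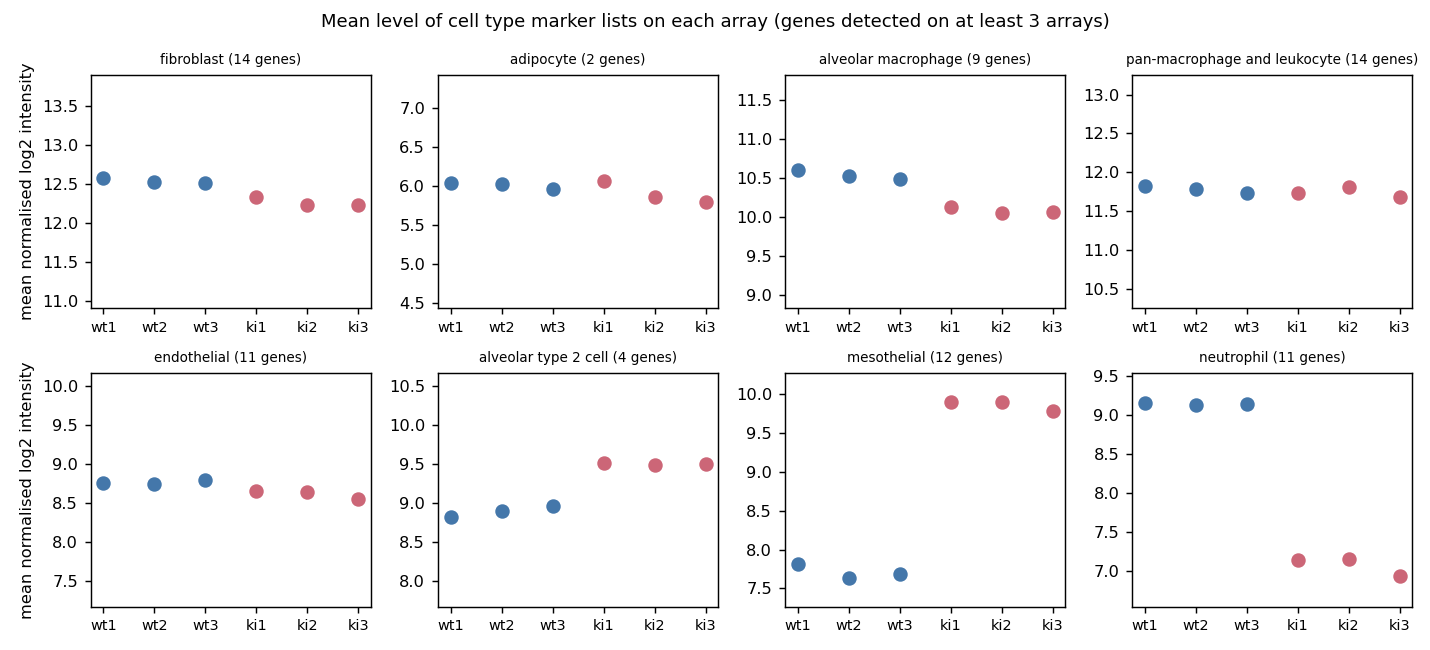
Mean normalised log2 intensity (vertical axes, the same span in each panel) of the tested genes of 8 cell type marker lists on each of the 6 arrays, wt in blue and ki in red. The alveolar macrophage mean is 10.48 to 10.60 in wt and 10.05 to 10.13 in ki, the mesothelial mean is higher and the neutrophil mean lower on all ki arrays, and the means of the markers shared by macrophages and other leukocytes overlap.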

How the data were processed

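Illumina bead arrays measured biotin-labelled cRNA of the fibroblasts, 1 array for each of 3 wt and 3 ki mice, per the labels, which name no batch. The intensity values the authors deposited were background-subtracted and not normalised between arrays, and each has a deposited detection p-value, per the file headers; no source used here names the scanner software or the background method. The authors' normalised intensities served as an alternative. Between 17601 and 18531 probes were detected per array; the number of arrays limits the precision (median residual SD over genes, 0.12 in log2 units). The genotypes' arrays correlated at 0.979 to 0.983 with each other and at 0.990 to 0.994 within a genotype.

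With limma 3.58.1 in R 4.3.3, background was corrected by normexp, with negative controls inferred from detection p, an offset of 16 was added, and the arrays were quantile normalised as log2 values. Symbols came from the platform annotation, updated through gene identifiers: 34885 probes had 1 symbol, 18 several and 10378 none. A probe was kept if its detection p was under 0.05 on 3 or more of the 6 arrays, the brightest per gene was tested (10412 genes), and ki was compared with wt by the moderated test (4 residual degrees of freedom, Benjamini-Hochberg adjusted p-values). The procedure was tested on simulated data. Promoters were searched in Python 3.11.15.

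The 10 genes and all lists were chosen with earlier results of these data known. Named are the 10 genes and their probes, up to 5 passing genes of each pathway list by smallest p, up to 3 passing genes of each cell type list, and list genes detected on no array. Of the lipofibroblast markers all passing genes are named. Normalisation, offset, detection filter, probe choice, variance model, array weights, threshold and single arrays were varied.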

Additional observations from a re-analysis of the deposited data

How the results depend on the processing

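The counts were recomputed under 22 alternatives and each tested gene's difference under 21. Among these, the authors' normalised intensities and the deposited series values were identical, so the tallies below count that setting more than once. All 8 differences stayed below 0 throughout. Dgat2 and Fabp5 passed in all 21, with adjusted p up to 0.00658 and 0.0315. Pparg and Cebpb passed in 19 of 21 and Dgat1 in 12 of 21, and Plin2, Pnpla2 and Lpl passed in none. Of the 10 genes, 5 were lower, and 4 to 5 with single arrays left out. An adjusted p under 0.01 left 2 of them, 13 pathway genes and 852 of all genes, in place of 5, 25 and 1879. Fitting 4 arrays, without the brightest of wt and the dimmest of ki (chosen after seeing the data), also left 2 (Dgat2 and Fabp5), with 13 pathway genes and 828 genes; the adjusted p was then 0.0703 for Dgat1, 0.0528 for Pparg and 0.0859 for Cebpb. Moderating the spread over all probes, also added after seeing the data, kept 5 lower. With single arrays left out, 1221 to 1414 genes and 16 to 24 pathway genes were called, the lowest counts without wt mouse 2 (1221 and 16); without wt mouse 3 they were 1251 and 16. A variance trend with robust moderation called 41 pathway genes and 2591 of all genes, in place of 25 and 1879. The cause of these higher counts was not tested. Without the detection filter, which raised the number of genes tested, Dgat1 had an adjusted p of 0.0713. Scaling all probes to a common median put the median gene at -0.22 and called 1511 genes lower and 401 higher, in place of 865 and 1014, with 5 of the 10 genes still lower. A shift in that direction favours calls of a fall, so these 5 calls add no support of their own. Under that scaling Plin2, Pnpla2 and Lpl, at -0.37, -0.37 and -0.40, did not pass when tested against 0. Their distance from the shifted median was not tested.

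Same-numbered wt and ki arrays correlated at 0.020 to 0.088 in their deviations from the group means, none over 0.1, so the numbers were not taken to pair the mice. With the replicate number as a block, the replicate block fit called 4 of the 10 genes lower, 24 pathway genes and 1510 genes, and Dgat1 had an adjusted p of 0.0644. The arrays hold 3 mice per genotype, and signal near background limits Fabp4, Lipe and the dimmer probes of Pparg.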
